A study of Homo sapiens with 28 samples.

Results

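The loci of 5 genes of the mitotic cell cycle, CCNA2, CCNB1, CDK1, TOP2A and MKI67, were examined in 28 CUT&RUN peak lists from human IMR-90 fibroblasts. Every deposited peak that overlapped 1 of 5 windows on hg19 was taken: chr4:122720000-122765000 for CCNA2, chr5:68445000-68490000 for CCNB1, chr10:62520000-62570000 for CDK1, chr17:38530000-38590000 for TOP2A and chr10:129880000-129945000 for MKI67. This gave 124 of 1123812 peaks, from 18 of the 28 libraries. CUT&RUN releases the DNA around an antibody-bound protein with a tethered nuclease, and a peak is a stretch where the released fragments pile up above the local background.

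All libraries came from IMR-90(ER:Ras), a fetal lung fibroblast line with a RAS oncogene that 4-hydroxytamoxifen (4OHT) switches on. H3K27Ac, the histone acetylation of active promoters and enhancers, was profiled in 14 libraries. FOXF1, a lung mesenchymal factor of the forkhead family, was profiled in 8. The phosphorylated and thereby activated form of the AP-1 subunit c-JUN (p-c-JUN) was profiled in 6. Proliferating cells (Pro) and oncogene-induced senescent cells (Sen) were profiled with each antibody. Senescent cells given small interfering RNA (siRNA) against FOXF1 and FOXF2 (siFOXF1/2) were also profiled with each antibody. Senescent cells with JUN knockdown (cJUN/JUND-KD) were profiled for H3K27Ac and FOXF1, and senescent cells given siRNA against p300 and CBP (sip300/CBP), with their own senescent control, for H3K27Ac only. Each group had 2 libraries except H3K27Ac Sen, which had 4. Replicates 3 and 4 of that group were recorded together with the cJUN/JUND-KD libraries and were compared with them, whereas replicates 1 and 2 were compared with Pro and siFOXF1/2. The treatment labels give control siRNA and 100 nM 4OHT for 6 days for the Pro libraries as well as for Sen, so Pro rests on the sample titles and the design text. The titles of the JUN knockdown name cJUN and JUND, and its treatment labels also name JUNB. No label says that replicates were separate cultures, so their spread may be technical.

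Cyclin A2 (CCNA2) and cyclin B1 (CCNB1) bind and activate the kinase CDK1, which drives cells into mitosis. TOP2A untangles and condenses chromosomes, and MKI67 encodes Ki-67, the coat protein of mitotic chromosomes that is widely used as a marker of proliferation. Such genes are transcribed late in the cell cycle through promoters that carry CCAAT boxes and cell cycle homology regions (CHR), and they are silenced when cells enter senescence.

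The bases before the annotated start of each gene are shown, with letter matches to these elements marked. Each sequence is the 250 bases upstream of the start in RefSeq (GRCh38.p14), 5′ to 3′ on the gene's strand, with CHR (TTTGAA) and CCAAT box (CCAAT) letters on either strand in capitals. The positions are chr4:121823884-121824133 (- strand) for CCNA2, chr5:69166900-69167149 (+ strand) for CCNB1, chr10:60778081-60778330 (+ strand) for the first of 2 CDK1 starts, chr17:40417897-40418146 (- strand) for TOP2A and chr10:128126424-128126673 (- strand) for MKI67.
CCNA2: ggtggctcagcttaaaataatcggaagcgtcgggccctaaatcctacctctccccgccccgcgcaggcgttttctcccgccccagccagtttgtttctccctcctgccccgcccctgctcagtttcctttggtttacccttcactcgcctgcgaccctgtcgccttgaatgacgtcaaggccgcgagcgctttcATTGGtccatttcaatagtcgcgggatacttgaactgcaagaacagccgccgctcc
CCNB1: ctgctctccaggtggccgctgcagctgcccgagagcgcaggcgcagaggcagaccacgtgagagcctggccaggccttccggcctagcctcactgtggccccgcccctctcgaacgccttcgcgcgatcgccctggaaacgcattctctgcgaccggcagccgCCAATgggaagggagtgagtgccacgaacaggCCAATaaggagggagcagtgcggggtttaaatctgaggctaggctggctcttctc
CDK1: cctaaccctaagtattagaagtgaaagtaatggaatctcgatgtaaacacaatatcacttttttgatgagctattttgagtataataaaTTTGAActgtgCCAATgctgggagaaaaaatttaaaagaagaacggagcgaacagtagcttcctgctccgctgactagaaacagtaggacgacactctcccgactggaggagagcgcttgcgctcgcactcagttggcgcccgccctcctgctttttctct
TOP2A: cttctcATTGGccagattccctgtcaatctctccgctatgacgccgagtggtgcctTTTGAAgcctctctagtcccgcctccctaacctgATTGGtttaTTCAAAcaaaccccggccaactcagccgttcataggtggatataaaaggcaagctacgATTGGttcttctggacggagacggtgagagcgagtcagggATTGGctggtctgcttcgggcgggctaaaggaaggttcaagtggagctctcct
MKI67: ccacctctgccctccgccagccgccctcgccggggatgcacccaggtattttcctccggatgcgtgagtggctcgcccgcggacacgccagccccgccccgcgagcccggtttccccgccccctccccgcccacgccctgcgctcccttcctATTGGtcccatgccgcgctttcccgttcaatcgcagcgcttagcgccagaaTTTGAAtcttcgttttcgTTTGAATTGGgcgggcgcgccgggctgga
CCAAT letters occurred in all 5 sequences, once in CCNA2 and CDK1, 2 times in CCNB1 and MKI67 and 4 times in TOP2A. Of 35116 promoters of the same length, 32% held at least 1 match. TTTGAA occurred once in CDK1 and 2 times each in TOP2A and MKI67, against 13.3% of promoters with a match. It was absent from the CCNA2 and CCNB1 sequences. Only this spelling of the CHR was searched, so a CHR with other letters would be missed. In MKI67 the last TTTGAA overlaps a CCAAT box on the other strand. The AP-1 letters TGANTCA were in none of the 5 sequences and in 6.57% of all promoters. The forkhead letters TGTTTNC were found once, in CDK1, and in 15.5% of all promoters. The E2F letters TTTNGCGC were in none of the 5 sequences shown, 2 times before the other CDK1 start, and in 1.51% of all promoters. Before that other start, TTTGAA and CCAAT also occurred 2 times each, and the forkhead letters were absent. These matches describe letters only. No hg19 gene annotation was used here. The peaks below are placed by their hg19 position and are not assigned to a start site, an exon or an intron. Gene names below stand for the windows, and a region may belong to a neighbouring gene. In chromosome order, the protein coding neighbours are EXOSC9 and BBS7 for CCNA2, SLC30A5 and CENPH for CCNB1, and ANK3 and RHOBTB1 for CDK1. They are GJD3 and IGFBP4 for TOP2A, and PTPRE and MGMT for MKI67.

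Lists ranged from 143 to 93466 peaks, and short lists hold fewer peaks anywhere. The 2 FOXF1 lists after siFOXF1/2 (143 and 203) and the 2 after cJUN/JUND-KD (400 and 902) were far shorter than the Sen lists (13622 and 40556). The H3K27Ac lists of sip300/CBP and its control held 1566 to 8246 peaks, against 26712 to 89338 in the other H3K27Ac libraries. None of these 8 libraries held a peak in any window, and neither did FOXF1 Pro replicate 1 or p-c-JUN Pro replicate 1. H3K27Ac accounted for 85 of the 124 peaks, p-c-JUN for 31 and FOXF1 for 8. Peaks that overlapped by 1 bp or more were joined into 30 regions, numbered from the low end of each window: 8 at CCNA2, 3 at CCNB1, 5 at CDK1, 4 at TOP2A and 10 at MKI67.

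**Figure D1:**
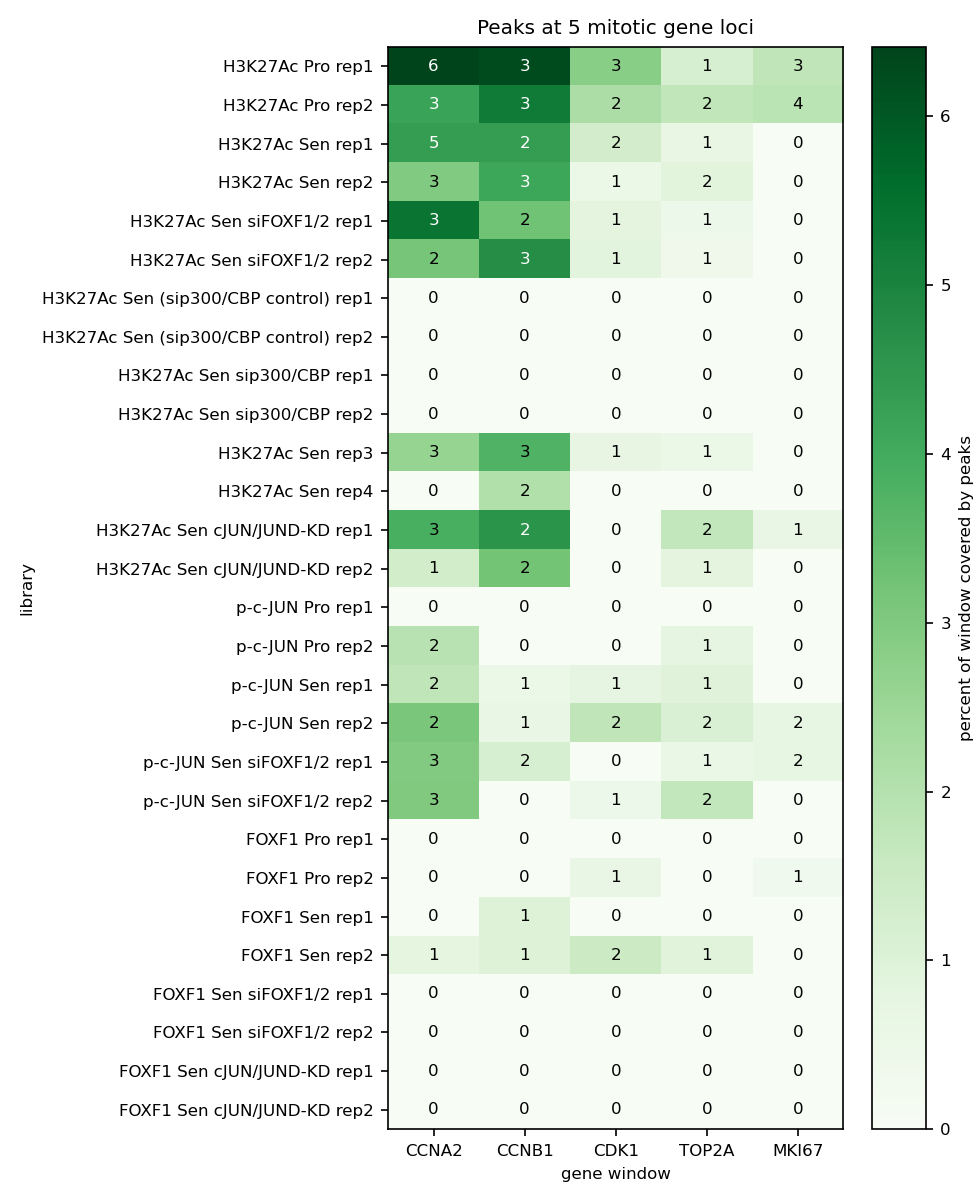
Peaks in the window of each gene (columns) in each library (rows): the number in a cell is the count of peaks and the shade the percent of the window they cover. H3K27Ac at MKI67 is limited to 3 and 4 peaks in the Pro libraries and 1 peak in a cJUN/JUND-KD library, while CCNB1 has 2 or 3 H3K27Ac peaks in each of the 10 libraries with any.

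A region was called gained in a condition when its 2 libraries had a peak there and the 2 libraries it was compared with had none, and lost in the reverse case. With 2 libraries against 2, the exact two-sided permutation test cannot give a p below 0.333, so no difference here could pass a threshold of 0.05. Fold enrichment is the peak caller's ratio of summit pileup to local background, and −log10 q its adjusted significance. Both are the authors' values for that peak.

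The CCNB1 window held H3K27Ac in both proliferating and senescent cells. Whether its regions belong to CCNB1 or to the next gene, CENPH, was not determined. Region 3 (chr5:68484551-68485988) was the only region of the 30 with a peak in all 10 H3K27Ac libraries that had any peak in the windows. Fold enrichment there was 5.84 and 5.64 in Pro and 6.06, 4.39, 7.86 and 6.27 in Sen. After siFOXF1/2 it was 7.50 and 6.75, and after cJUN/JUND-KD 7.35 and 6.18. The Pro values lie within the range of the Sen values. Region 1 (chr5:68462422-68464369) also held H3K27Ac in both conditions, with the highest fold per library 3.19 and 3.77 in Pro and 5.65, 5.05 and 6.53 in Sen replicates 1 to 3. Both Pro libraries were below those 3 Sen libraries, and Sen replicate 4, the library with the shortest list of that group, had no peak there.

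FOXF1 and p-c-JUN peaks appeared at CCNB1 region 3 in senescent cells. FOXF1 was called in both Sen libraries (fold 5.91 and 5.64) and in neither Pro library. This was the only FOXF1 region gained among 6 in the windows, where 13.1% of 45464 FOXF1 regions genome-wide were gained and 0.35% lost. Among 45 kb tiles held by both FOXF1 Sen libraries, 41.5% had no peak in either Pro library. The same region was lost after siFOXF1/2, where 26.2% of regions were lost and 0.0607% gained, and after cJUN/JUND-KD, where 25.4% were lost and 0.148% gained. Both Sen peaks had a −log10 q just under 5 (4.92 and 4.87), and none of these calls remained at a minimum of 5 or with lists of equal length. Of the 45 kb tiles held by both Sen libraries, 99.3% were empty after siFOXF1/2 and 95.6% after cJUN/JUND-KD. The FOXF1 cJUN/JUND-KD libraries were recorded in a different block from Sen, so knockdown and block cannot be told apart.

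p-c-JUN was called beside it at chr5:68485392-68485717 in both Sen libraries, with fold 4.64 and 5.67, and in neither Pro library. The FOXF1 and p-c-JUN summits of the region lay 373 to 480 bp apart. After siFOXF1/2, replicate 1 had a p-c-JUN peak in the region (fold 3.54) and replicate 2 had none.

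CDK1 held a site where all 3 antibodies had peaks. Region 1 (chr10:62537737-62538217) had H3K27Ac in Pro replicate 2 only (fold 2.63), in Sen replicates 1 to 3 (4.77, 6.05 and 3.92) and in both siFOXF1/2 libraries (6.30 and 5.16). It had none in Pro replicate 1, Sen replicate 4 or either cJUN/JUND-KD library. The Pro value was below every other H3K27Ac value in the region. The summit pileup was 23 fragments in Pro replicate 2 and 25, 22 and 9 in Sen replicates 1 to 3. The median pileup of the whole list was 20 in Pro replicate 2 and 20, 16 and 16 in these Sen libraries. The local background was 1.89 times the median of its own list in Pro replicate 2 and 1.09, 0.83 and 0.58 times in Sen replicates 1 to 3.

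p-c-JUN was gained in senescent cells at the same place (chr10:62537791-62538217), with fold 4.06 and 8.70 in Sen and no peak in Pro, and it was absent from both siFOXF1/2 lists, so it counted as lost there. FOXF1 was called there in Sen replicate 2 (fold 4.72), with its summit 42 and 17 bp from the 2 p-c-JUN summits. CDK1 and CCNB1 held the 2 p-c-JUN regions gained among 10 in the windows. Genome-wide, 28% of 106528 p-c-JUN regions were gained and 0.307% lost, and the Sen lists (70199 and 93466 peaks) were longer than the Pro lists (24834 and 32154). Neither gain was called with lists of equal length, nor at a −log10 q of 5 or more, since the Sen replicate 1 peaks had 3.70 at CCNB1 and 2.87 at CDK1. The 1 p-c-JUN region gained at that minimum was TOP2A region 4, with 6.01 and 7.82 in Sen and 2.74 in Pro replicate 2. The share of the window under p-c-JUN peaks was 0.513% and 0.622% in Sen at CCNB1 and 0.756% and 1.76% at CDK1, against 0% in both Pro libraries (exact permutation p = 0.333 for each). The CCNB1 peaks lie near the window's end, and with the window narrowed by 5 kb at each end no difference was left there. Among tiles held by both Sen libraries, 33.2% of 45 kb tiles and 31.8% of 50 kb tiles were empty in Pro. For siFOXF1/2 against Sen, 4.03% of 128056 p-c-JUN regions were lost and 4.47% gained, and CDK1 region 1 was the 1 loss among 12 regions in the windows, with no gain. That loss was not called at a −log10 q of 5 or more, and leaving out siFOXF1/2 replicate 2 gave 2 gains. CDK1 region 4 (chr10:62560890-62561696) carried FOXF1 in Pro replicate 2 (fold 4.14) and Sen replicate 2 (fold 6.28), beside H3K27Ac in both Pro libraries (2.98 and 3.28) and Sen replicate 1 (3.02).

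**Figure D2:**
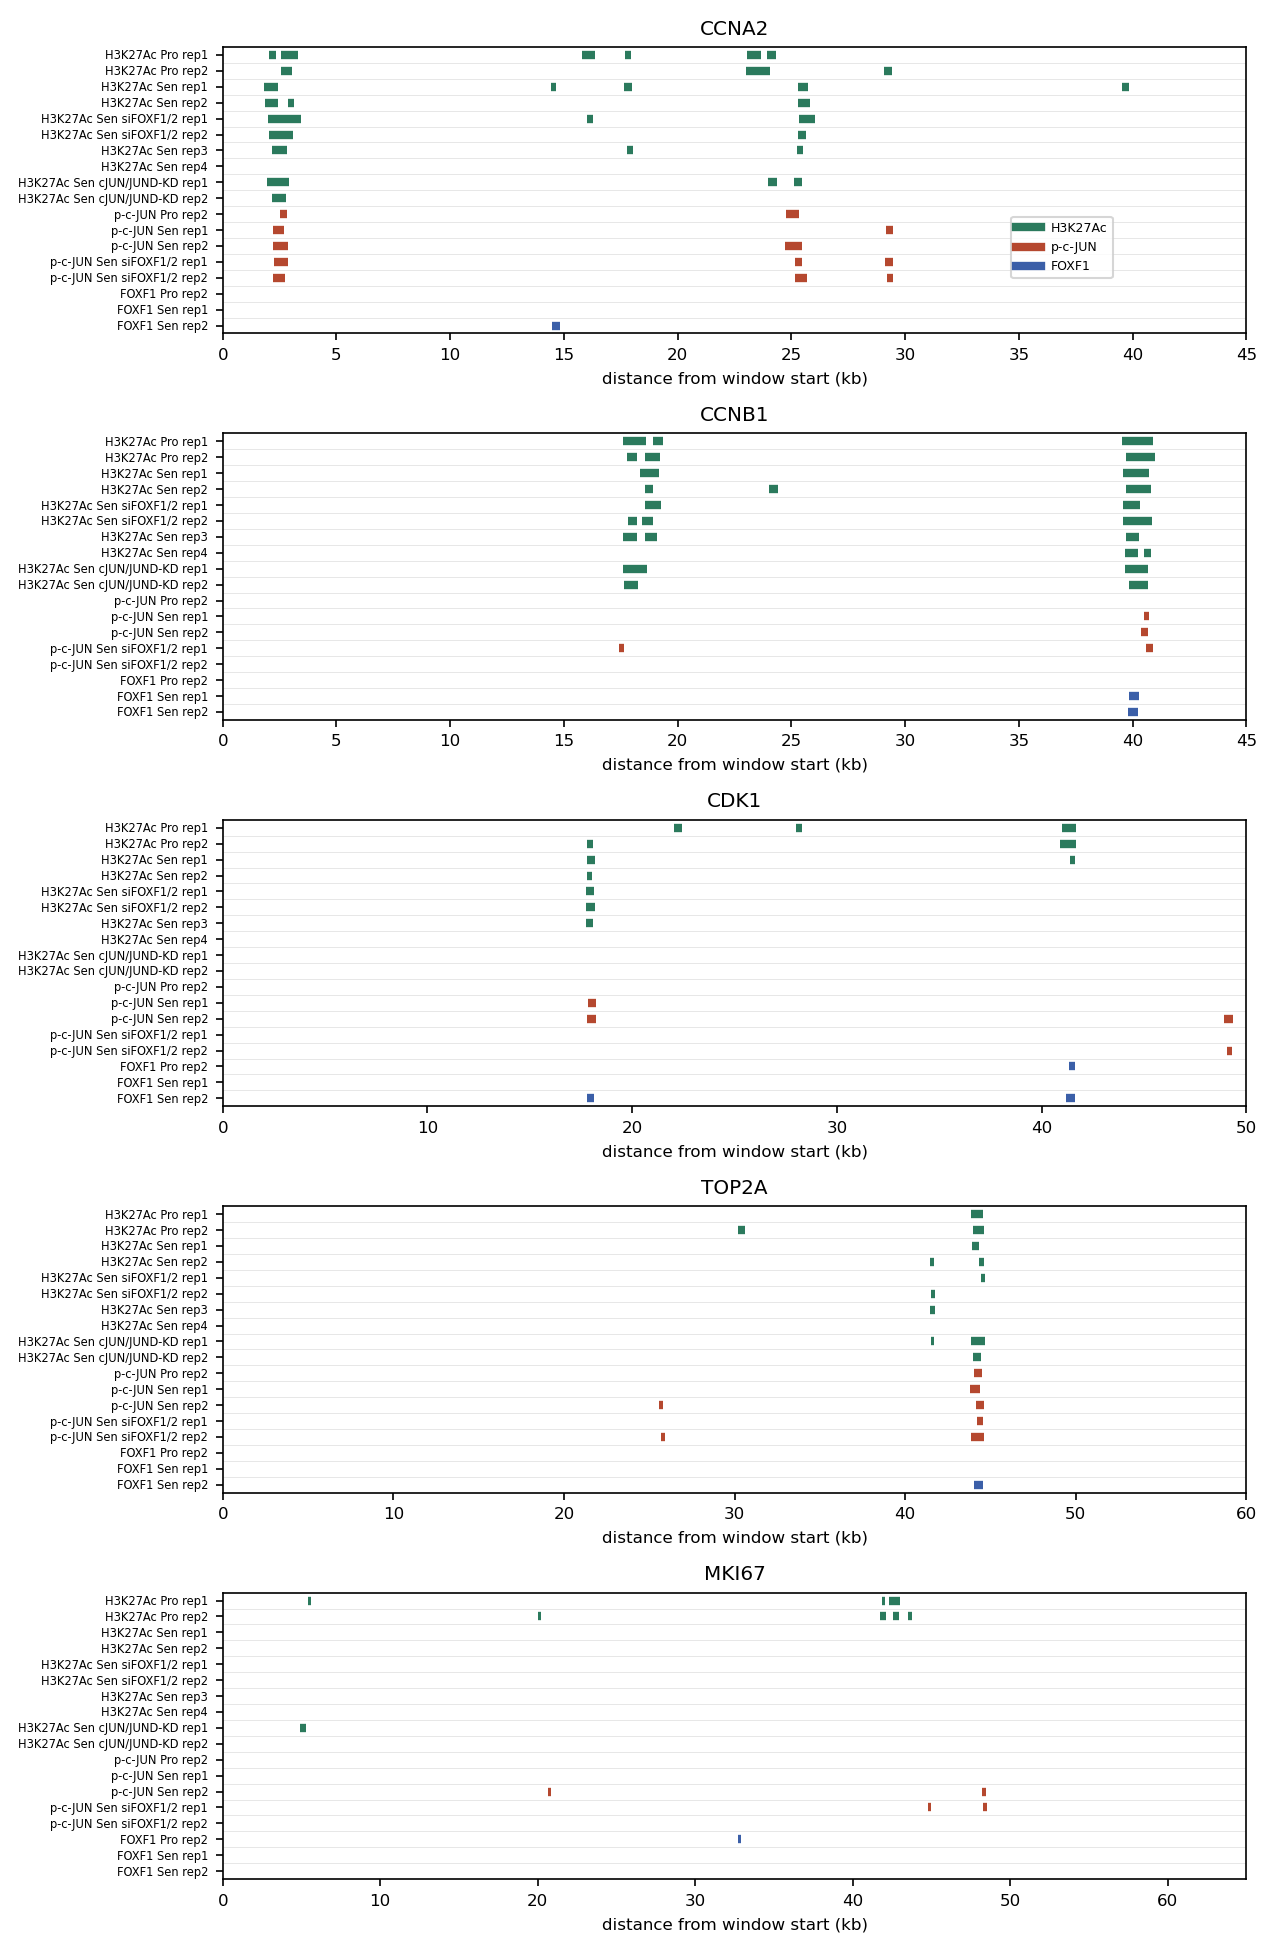
Position of every peak in the 5 windows, as distance from the window start in kb, for the 18 libraries with a peak; colours give the antibody. Peaks of different antibodies stack at CCNB1 region 3, CDK1 region 1 and TOP2A region 4.

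At CCNA2, 2 neighbouring H3K27Ac regions in the middle of the window were called differently in Pro and in Sen replicates 1 and 2. Region 5 was held by both Pro libraries at chr4:122743018-122744332 (fold 2.95 and 2.86) and by neither Sen replicate 1 nor 2. Senescent cJUN/JUND-KD replicate 1 also had a peak in region 5 (fold 2.76). The neighbouring stretch chr4:122745276-122745840 was held by Sen replicates 1 and 2 (fold 3.64 and 4.50) and by neither Pro library. In region 6, which contains that stretch, H3K27Ac was also called in Sen replicate 3 (3.68), both siFOXF1/2 libraries (4.23 and 3.59) and cJUN/JUND-KD replicate 1 (4.44), but not in Sen replicate 4. Since replicate 4 had no peak anywhere in the CCNA2 window, the gain was not called when all 4 Sen libraries were required. The weaker −log10 q of the gained region, 6.73, was above that of 96.3% of all gained H3K27Ac regions. The local background under the region 5 peaks of Pro was 2.53 to 2.79 times the list median. It was 1.35 to 1.71 times under the region 6 peaks of Sen replicates 1 to 3.

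CCNA2 region 1 (chr4:122721818-122723447) was held by 9 H3K27Ac libraries and by each of the 5 p-c-JUN libraries with a peak in the windows. Its highest H3K27Ac fold per library was 3.53 and 3.19 in Pro and 3.78, 5.54 and 5.53 in Sen replicates 1 to 3. After siFOXF1/2 it was 5.20 and 4.22, and after cJUN/JUND-KD 4.72 and 4.57. Both Pro values were below all the others. p-c-JUN fold there was 4.30 in Pro replicate 2, 4.45 and 7.66 in Sen and 4.04 and 6.92 after siFOXF1/2, so the Sen and siFOXF1/2 ranges overlap. Region 7 (chr4:122749052-122749478) had p-c-JUN in Sen replicate 1 (fold 7.90) and both siFOXF1/2 libraries (7.57 and 5.82) and in no Pro library. Region 6 also held p-c-JUN, with fold 4.84 in Pro replicate 2, 6.16 in Sen replicate 2 and 3.69 and 5.23 after siFOXF1/2. Its groups overlap, since Pro replicate 1 and Sen replicate 1 had no peak there. H3K27Ac in region 4 (chr4:122737655-122738025) was weak wherever it was called, in Pro replicate 1 (fold 2.62) and in Sen replicates 1 and 3 (2.98 and 2.90). FOXF1 was called once at CCNA2, in region 2 in Sen replicate 2 (fold 3.71).

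TOP2A had 1 main site. Region 4 (chr17:38573830-38574697) was held by 7 H3K27Ac libraries, all 5 p-c-JUN libraries with a peak in the windows and FOXF1 Sen replicate 2 (fold 5.94). H3K27Ac fold was 3.37 and 3.05 in Pro and 3.01 and 3.67 in Sen replicates 1 and 2, and these overlap. The summit pileup was 20 and 19 fragments in Pro and 11 in each of these Sen libraries. Scaled to each list's medians, the pileup was lower in Sen by a log2 difference of -0.66 and the local background by -0.86. Of 34371 regions held by all 4 libraries, 11.3% had a lower pileup difference and 6.76% a lower background difference. The pileup difference at CCNB1 was 0.47 in region 1 and -0.10 in region 3, with 86.0% and 46.9% of regions lower. At TOP2A region 4, p-c-JUN fold was 4.27 in Pro replicate 2, 5.82 and 6.40 in Sen and 4.82 and 6.73 after siFOXF1/2. The FOXF1 summit lay 19 to 351 bp from the p-c-JUN summits. A smaller H3K27Ac site, region 3 (chr17:38571462-38571770), was called in senescent libraries only, in Sen replicates 2 and 3 (fold 3.26 and 5.22), siFOXF1/2 replicate 2 (4.34) and cJUN/JUND-KD replicate 1 (2.91). It was missing from Sen replicates 1 and 4 as well as from both Pro libraries, so it was not called gained.

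After cJUN/JUND-KD, TOP2A region 4 held H3K27Ac in both libraries (fold 4.83 and 4.74), and Sen replicates 3 and 4 had none. This was the 1 gain among 10 regions in the windows, where 7.66% of 94711 regions were gained and 2.74% lost. Sen replicates 1 and 2 did hold the region, and with all 4 Sen libraries required to lack it, no gain was called.

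MKI67 had H3K27Ac peaks in proliferating cells and almost none in senescent cells. Pro replicate 1 had 3 and Pro replicate 2 had 4, while all 4 Sen and both siFOXF1/2 libraries had 0, and cJUN/JUND-KD replicate 1 had 1 elsewhere in the window (fold 3.99). Regions 6 (chr10:129921714-129922097) and 7 (chr10:129922297-129922985) were held by both Pro libraries, with fold 2.16 and 2.35 and fold 2.96 and 2.44. Among 65 kb tiles held by both Pro libraries, 4.54% were empty in Sen replicates 1 and 2. The Pro peaks here were weak: the highest −log10 q of the 7 was 3.70 and none reached 5. The weaker −log10 q of region 6 was 1.33, above that of 0.063% of lost H3K27Ac regions, and that of region 7 was 1.91, above that of 4.3%. Neither loss was called at a −log10 q of 5 or more, nor with lists of equal length. Whether the weakness of these peaks had a part in the calls was not tested. p-c-JUN region 10 (chr10:129928239-129928518) was called in Sen replicate 2 (fold 4.80) and siFOXF1/2 replicate 1 (4.04), and FOXF1 once, in Pro replicate 2 (4.20).

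**Figure D3:**
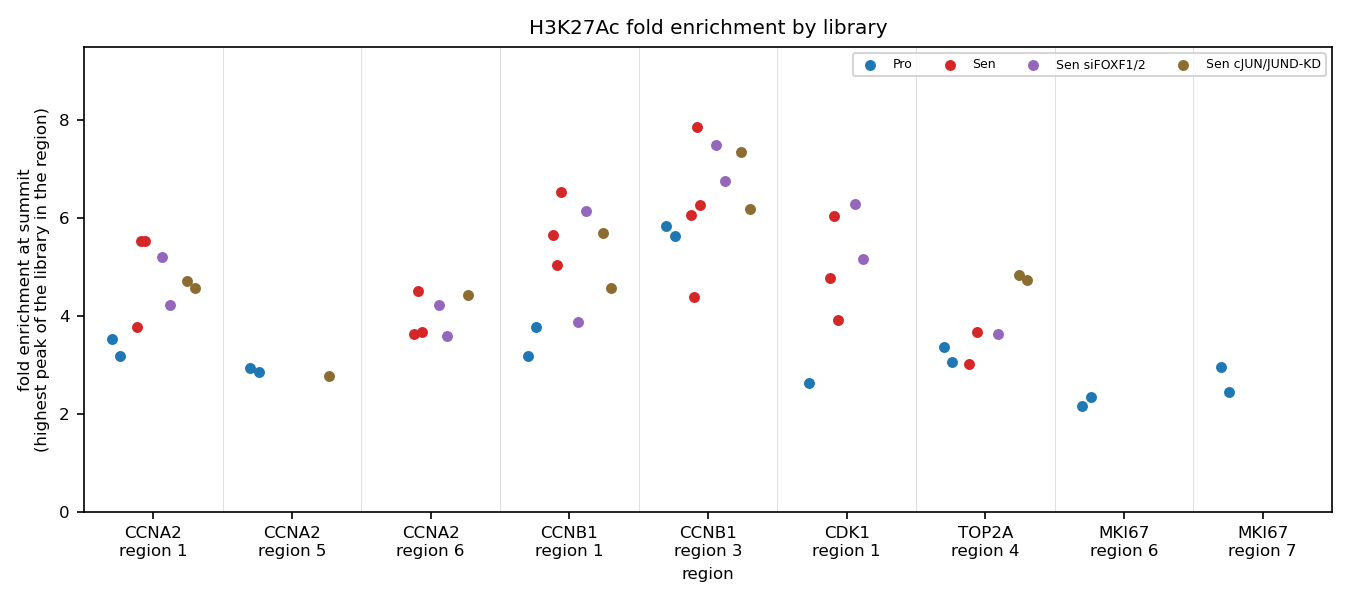
H3K27Ac fold enrichment at the summit (linear axis) for the highest peak of each library in 9 regions; each point is a library and libraries with no peak have no point. At CCNA2 region 1 and CCNB1 region 1 both Pro points lie below all others, and MKI67 regions 6 and 7 have Pro points only.

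Across the 5 windows, the H3K27Ac comparison of Sen with Pro covered 24 regions, of which 1 was gained and 3 were lost. Genome-wide, 4.51% of 132822 regions were gained and 9.56% lost. The balance of these calls turned with the list: 4 were gained and 1 lost at a −log10 q of 5 or more, and 3 gained and 1 lost with lists of equal length. The share of the window under H3K27Ac peaks was lower in Sen, without overlap of the libraries, at CCNB1, CDK1, TOP2A and MKI67. The share of windows genome-wide with such a difference was not computed, so these are not set apart from the rest of the genome. At CCNB1 it was 6.26% and 5.21% in Pro and 4.34% and 4.13% in Sen, at CDK1 2.81% and 2.16% against 1.30% and 0.504%, and at TOP2A 1.17% and 1.73% against 0.655% and 0.875%. At MKI67 it was 1.77% and 1.85% against 0%. Each of these 4 gave an exact permutation p of 0.333, the smallest that 2 against 2 allows. At CCNA2 the ranges overlapped, with 6.41% and 4.19% in Pro and 4.35% and 2.97% in Sen (exact permutation p = 0.667). The lists were of unequal length, 84314 and 89338 peaks in Pro and 84876 and 60873 in Sen. Their peaks covered 55.8 and 58.0 Mb in Pro and 55.8 and 32.3 Mb in Sen. With lists of equal length the differences at CCNB1 and CDK1 changed sign, to 0.106 and 0.654 percentage points. At a −log10 q of 5 or more, none of these Pro and Sen libraries kept an H3K27Ac peak at TOP2A or MKI67, so no difference was left there.

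The local background under H3K27Ac peaks was taken as a multiple of the list median. Its median was higher over the Pro than over the Sen peaks at the loci with peaks in both. It was 2.51 in Pro and 1.30 in Sen at CCNA2, 1.89 and 0.78 at CDK1, 1.29 and 0.763 at TOP2A and 0.901 and 0.784 at CCNB1. The ranges of single peaks overlapped at CCNA2 (1.20 to 2.80 in Pro, 0.769 to 1.897 in Sen), CDK1 (0.975 to 3.00 and 0.579 to 1.09) and CCNB1 (0.758 to 1.01 and 0.671 to 0.852), but not at TOP2A. These medians pool peaks of different regions and libraries. The Sen peaks include those of replicates 3 and 4, which were recorded in a different block from Pro. The share of loci genome-wide with a higher Pro median was not computed. CCNB1 regions 1 and 3 were held by both Pro libraries and Sen replicates 1 and 2. The log2 difference in background was -0.31 in region 1, with Sen the lower, and 0.06 in region 3, with Sen the higher. Over all regions genome-wide held by these libraries, the median difference was -0.01. MKI67 had no Sen peak to compare, and its 7 Pro peaks had a median of 1.39. These values exist only where a peak was called, and they were not tested. The peak caller's settings are not given, so whether the background came from the same library or from a control is not known.

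**Figure D4:**
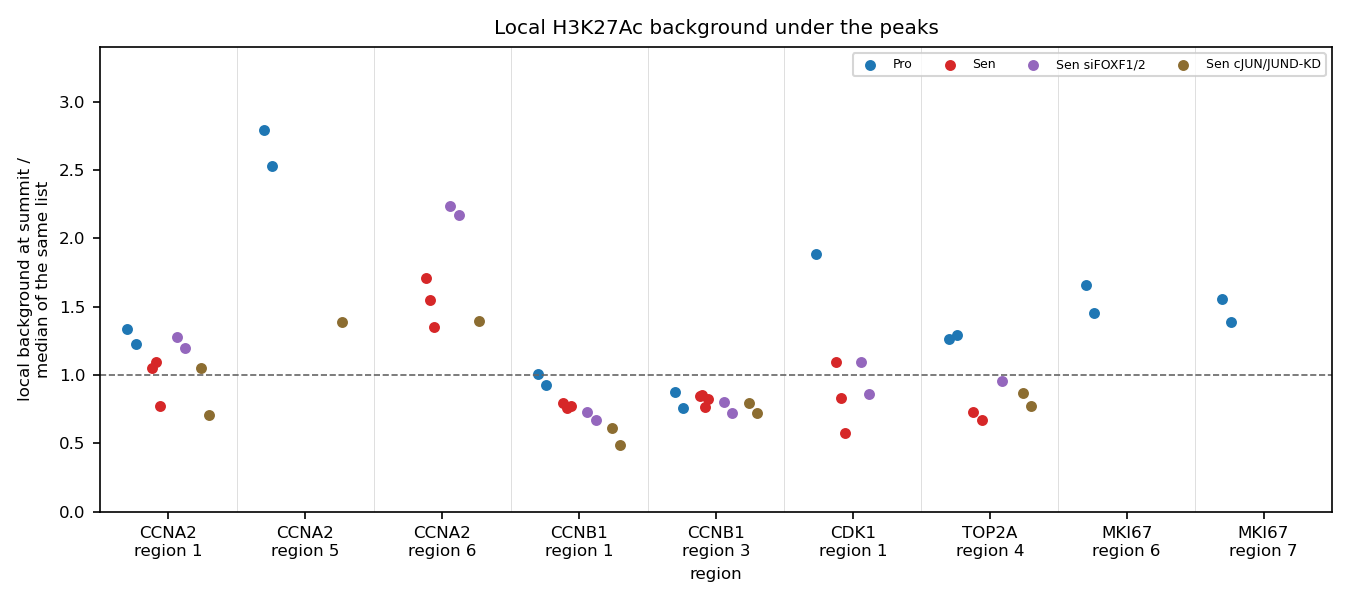
Local background at the summit of H3K27Ac peaks divided by the median of the same list (dashed line at 1), for the highest value of each library in 9 regions. Each point is a library. Pro lies highest at CCNA2 region 5 (2.53 and 2.79) and, with its only point, at CDK1 region 1 (1.89).

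No H3K27Ac region at these loci was called gained or lost after siFOXF1/2. Against Sen replicates 1 and 2, none of 15 regions was gained or lost, where 5.51% of 125299 regions were gained and 4.26% lost genome-wide. CCNA2 regions 1 and 6, CCNB1 regions 1 and 3 and CDK1 region 1 were held by all 4 libraries, 5 regions in all. The share of the TOP2A window covered was 0.457% and 0.375% after siFOXF1/2 and 0.655% and 0.875% in Sen, without overlap (exact permutation p = 0.333). The share of windows genome-wide with such a difference was not computed. For p-c-JUN, CCNA2 region 1 and TOP2A region 4 were held by all 4 Sen and siFOXF1/2 libraries. The sip300/CBP comparison had no region in the windows to compare, and 2.02% of its 13884 regions were gained and 2.69% lost genome-wide.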

How the data were processed

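CUT&RUN peak lists of 28 libraries (14 H3K27Ac, 8 FOXF1, 6 p-c-JUN) were used, 1 list per library. The submitters' processing notes name Bowtie2 2.3.4.1, SAMtools 1.9, deepTools 3.1.1, MACS2 3.0.0 and hg19, with no settings. Per the labels' protocols, yeast spike-in DNA was added; no source used here says whether it served for scaling. The deposited lists give, per peak, the authors' fold enrichment (a ratio), −log10 p and −log10 q, and a score that was not used. Read depth is unknown. Peaks off chromosomes 1 to 22 and X (475, or 0.0423%) were left out.

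Peaks were joined by an overlap of 1 bp or more. The pileup at each summit and its local background were recovered from the fold and −log10 p, taking fold as (pileup + 1) / (background + 1) and p as the Poisson upper tail, for peaks with −log10 p under 60 and to a tolerance of 0.0005. Every such peak gave a whole pileup. This step was added after seeing the data. The joining and solving steps were tested on simulated data. Motif letters were searched in the 250 bases before each RefSeq start. Python 3.11.15 with numpy 2.4.6, pandas 2.3.3, scipy 1.17.1 and matplotlib 3.10.9 was used.

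All 5 genes were named, with regions that 2 or more libraries of a group hold. Other peaks were named after their values were seen. The members and lists were chosen with earlier results of these data known. Results that need hg19 start sites (peaks at promoters, pathway lists, cell type markers and genes with a like pattern) were not analysed here. Alternatives were a −log10 q of 5 or more, a 50% overlap, lists of equal length, windows narrowed by 5 kb, other Sen libraries, each library left out and a replicate block.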

Additional observations from a re-analysis of the deposited data

How the results depend on the processing

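Joining by 50% overlap changed 1 count of gained or lost regions, H3K27Ac lost in Sen against Pro, from 3 to 4. At a −log10 q of 5 or more, H3K27Ac Sen against Pro had 4 gained and 1 lost, p-c-JUN Sen against Pro 1 gained, p-c-JUN siFOXF1/2 against Sen 0 lost, FOXF1 Sen against Pro 0 gained, FOXF1 0 lost under either knockdown, and H3K27Ac cJUN/JUND-KD 0 gained. With lists of equal length, H3K27Ac Sen against Pro had 3 gained and 1 lost, p-c-JUN Sen against Pro 0 gained, p-c-JUN siFOXF1/2 2 lost, FOXF1 0 gained and 0 lost under either knockdown, and H3K27Ac cJUN/JUND-KD 0 gained. With all 4 H3K27Ac Sen libraries, 0 regions were gained against Pro and 0 after cJUN/JUND-KD. Sen replicates 3 and 4 against Pro gave 0 gained and 5 lost. The cause of these shifts was not tested.

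Leaving out 1 library at a time gave, for H3K27Ac, 2 to 3 gained and 4 to 8 lost (Sen against Pro), 0 to 1 gained and 0 to 5 lost (siFOXF1/2), and 1 to 3 gained and 0 to 2 lost (cJUN/JUND-KD). It gave 2 to 6 gained for p-c-JUN Sen against Pro, and 0 to 2 gained and 1 to 2 lost for siFOXF1/2. For FOXF1 it gave 1 to 4 gained and 0 to 1 lost (Sen against Pro) and 1 to 5 lost under each knockdown. The highest counts came without FOXF1 Sen replicate 1 (4 gained, 5 lost), p-c-JUN Sen replicate 1 (6 gained), p-c-JUN siFOXF1/2 replicate 2 (2 gained), either H3K27Ac Pro library (8 lost) or Sen library (3 gained against Pro), H3K27Ac Sen replicate 2 (5 lost after siFOXF1/2), and H3K27Ac Sen replicate 3 or cJUN/JUND-KD replicate 2 (3 gained). By construction, 1 library then decides presence in its condition.

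The covered share changed sign for H3K27Ac Sen against Pro at CCNB1 with equal lengths (0.106 percentage points) and at CDK1 with equal lengths and at −log10 q of 5 or more (0.654 in each). Of 37 differences in covered share, 17 kept their direction at −log10 q of 5 or more and 12 with equal lengths. With windows narrowed by 5 kb, 34 of 37 kept it. A difference that vanished counted as not kept. Same-numbered libraries are not stated to be paired, and their deviations correlated at -0.03 to 0.21 over 60676 tiles of 50 kb. The replicate block uses the same lists, so all 32 differences kept their value by construction, for example -1.81 percentage points for H3K27Ac at MKI67. Only the p changed, and with 2 pairs a sign-flip p cannot be lower than 0.5. Promoter results could not be recomputed without hg19 start sites.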
